A study of Mus musculus with 2 samples.

Results

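The transcripts of 9 genes that mark monocytes and lipid-associated macrophages were followed through 22 deposited comparisons of mouse heart cells after myocardial infarction (MI). The members are Ly6c2, Plac8, Chil3, Trem2, Gpnmb, Fabp5, Apoe, Cd9 and Lpl, 9 of the 15181 genes that appear in any of the tables. They were chosen by their textbook roles and with earlier results of these data known, and Chil3 and Apoe were selected on their direction in these same comparisons, so that their values below are descriptions.

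After an infarct, monocytes that carry Ly6C enter the heart from blood and spleen and turn into macrophages, which clear dead cells and debris. Macrophages that take up much lipid switch on a shared set of genes, among them Trem2, Gpnmb, Fabp5, Cd9, Lpl and Apoe, and are called lipid-associated macrophages. Chil3 is a classical gene of alternative activation in the mouse, and is also made by monocytes and by developing neutrophils.

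The study asked which transcripts differ in the interstitial cells of the infarcted ventricle when myofibroblasts lose Yap and part of Wwtr1. Viable interstitial cells were sorted and profiled by 10x 3′ single-cell RNA sequencing in 2 libraries, 1 per genotype. The control library came from PostnMCM mice. The other, labelled Yap/Wwtr1-depleted, came from Yapfl/fl;Wwtr1fl/+;PostnMCM mice. Both strains carried R26-eGFP and the Cre allele, both received chow with 0.4 g/kg tamoxifen after ligation of a coronary artery, and the labels place collection 6 days after MI. The study's methods place it a day later. PostnMCM expresses an inducible Cre in cells that use Postn, chiefly activated fibroblasts, so macrophages and monocytes were not the cells in which the floxed alleles were meant to recombine. How many hearts each library pooled is not given in the sources used here.

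The tables cover 18 clusters of all cells (0 to 15, 17 and 18) and 4 subclusters of the fibroblasts (0, 3, 4 and 5). The study calls clusters 0, 3, 11, 12 and 13 macrophages/monocytes, reads clusters 6 and 10 as proliferating T cells, and gives no cell type to clusters 9 and 15. The value used is the deposited share of cells with a count above 0 for the gene after SCTransform, a model that adjusts each cell's counts for its depth, so it is a share of corrected and not of raw counts. It is given in percent for each library, and differences are in percentage points, library labelled depleted minus control. A difference of at least 10 points in size is counted as lower or higher. With 1 library per genotype there is no replicate spread, so no test was made, and what belongs to the genotype and what belongs to the library cannot be told apart. Cell numbers and counts per cell were not analysed here, so the depth behind each share is unknown and no interval is given. A cluster table lists a gene only where at least 25% of the cells of either library had a count and the authors' log2 fold change reached 0.25 in size. A gene missing from a cluster table therefore has no value there, and those listed were already required to differ in level, so that counts over them support nothing on their own. A gene with a share under 25% in 1 library was listed only through the other. Its direction there was largely fixed by this limit, and this holds for every such value below. The subcluster tables have no such limits and hold 15059 genes each. In subcluster 4 every share of the library labelled depleted is a multiple of 10 points, the same size as the limit used here, so that differences there are coarse. Shares of clusters 10 and 18 in control and of cluster 17 in the library labelled depleted also come in steps of about 9 points. The control shares of cluster 10 that serve below as T cell values are therefore coarse. In control the step was 5.8 points in cluster 9 and 3.7 in cluster 6. The fibroblasts were corrected a second time on their own, and shares of the same cells differ between cluster 5 and its subclusters: Chil3 was in 29.9% of control cells in cluster 5 and in 43.5% to 80% in the subclusters. Shares are therefore compared between libraries and among clusters, and between clusters and subclusters only the direction of a difference is set side by side.

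The targeted transcripts were not lower throughout in the library labelled depleted, which is why the second library is called by its label here. Yap1 was found in 23.3% to 57.5% of control fibroblasts and in 40% to 56.2% of those of the library labelled depleted, with a higher share in subclusters 0, 3 and 5 and a lower one in subcluster 4. Wwtr1 was found in 80% to 100% of control fibroblasts and in 60% to 91.3% of the others, higher in subcluster 0 alone. A gene can keep its transcript's 3′ end after its floxed exons are lost, and what these shares mean for recombination was not tested.

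The macrophage names were checked against 9 markers. In cluster 0, 4 of them were listed, with a mean share of 84.4% in control and 90% in the library labelled depleted. Clusters 3 and 13 listed 3 each at means between 72.3% and 86.7%, while cluster 12 listed 1, Lyz2, at 99.0% and 100%. Cluster 11 stood apart: it listed 7, at a mean of 49.9% in control and 31.9% in the library labelled depleted, while Flt3, a receptor of dendritic cells and their precursors, was found in 50% and 75.0%. C1qa, C1qb and C1qc, complement genes of tissue macrophages, were in 26.4% to 46.5% of its control cells and in 14.6% to 22.9% of the others. The 7 neutrophil markers listed in cluster 11 were all lower by at least 10 points, at means of 43.4% and 15.2%. Counts over the macrophage/monocyte clusters are therefore given with and without cluster 11.

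Chil3, which encodes a secreted chitinase-like lectin, was the member whose share differed most widely (chromosome 3, 106054870 to 106074880, minus strand, GRCm39). It was listed in 15 of the 18 cluster tables, lower in the library labelled depleted in 14 and by at least 10 points in 13, beside 38.6% of all values in those 18 tables that were lower by as much. In most of these tables it could be listed only through the control library, as given below. The share was 50.9% in control and 12.7% in the library labelled depleted in cluster 0, 61.3% and 36.4% in cluster 3, and 57.3% and 26.6% in cluster 12. In cluster 11 it was 47.9% and 6.2%, a difference of -41.7 points and the rank 4 from the lowest among the 729 genes of that table. Cluster 13 was the exception among the macrophage/monocyte clusters, since almost every cell of both libraries held Chil3, 97.9% and 91.5%.

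The same direction appeared in clusters that are not macrophages. Among neutrophils, granulocytes of the innate response, cluster 1 had Chil3 in 26.7% of control cells and 5.8% of the others, while cluster 18 had it in 90.9% and 100%, the only listed cluster with a higher share. In the T cell clusters 6, 7, 8 and 10, which should lack the gene, the control shares were 48.1%, 38.4%, 25.7% and 27.3%, and the shares in the library labelled depleted were 1.1%, 0.6%, 0% and 0%. Free RNA puts counts of a gene into cells that do not make it, so a control share at or below that of these T cells, up to 48.1%, is not read here as expression, although the source of these counts was not tested. That takes in clusters 1, 5, 9, 11, 15 and 17, and the 50.9% of cluster 0 lies little above it. Without cluster 6, which lists 1 of 8 T cell markers, Cd4 at 51.9% and 53.8%, the limit would be 38.4%, and clusters 11 and 15 would lie above it. In the library labelled depleted the T cells reached 1.1% at most, and clusters 1, 11 and 15 lay above that, at 5.8%, 6.2% and 9.1%.

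Beside clusters 1 and 11, the values of those clusters were 29.9% and 0.5% in the fibroblasts of cluster 5, 29.4% and 0.5% in cluster 9, 46.9% and 9.1% in cluster 15, and 35.0% and 0% in the dendritic cells of cluster 17. In the cluster tables Chil3 was thus at 1.1% or less of the library labelled depleted outside the macrophage/monocyte and neutrophil clusters, except in cluster 15. In clusters 0, 1, 5, 6, 7, 8, 9, 10, 11, 15 and 17 the share in the library labelled depleted was under 25%. Chil3 could be listed there only through the control library. A control share of at least 25% was thus fixed by the filter, and the lower direction largely so.

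**Figure D1:**
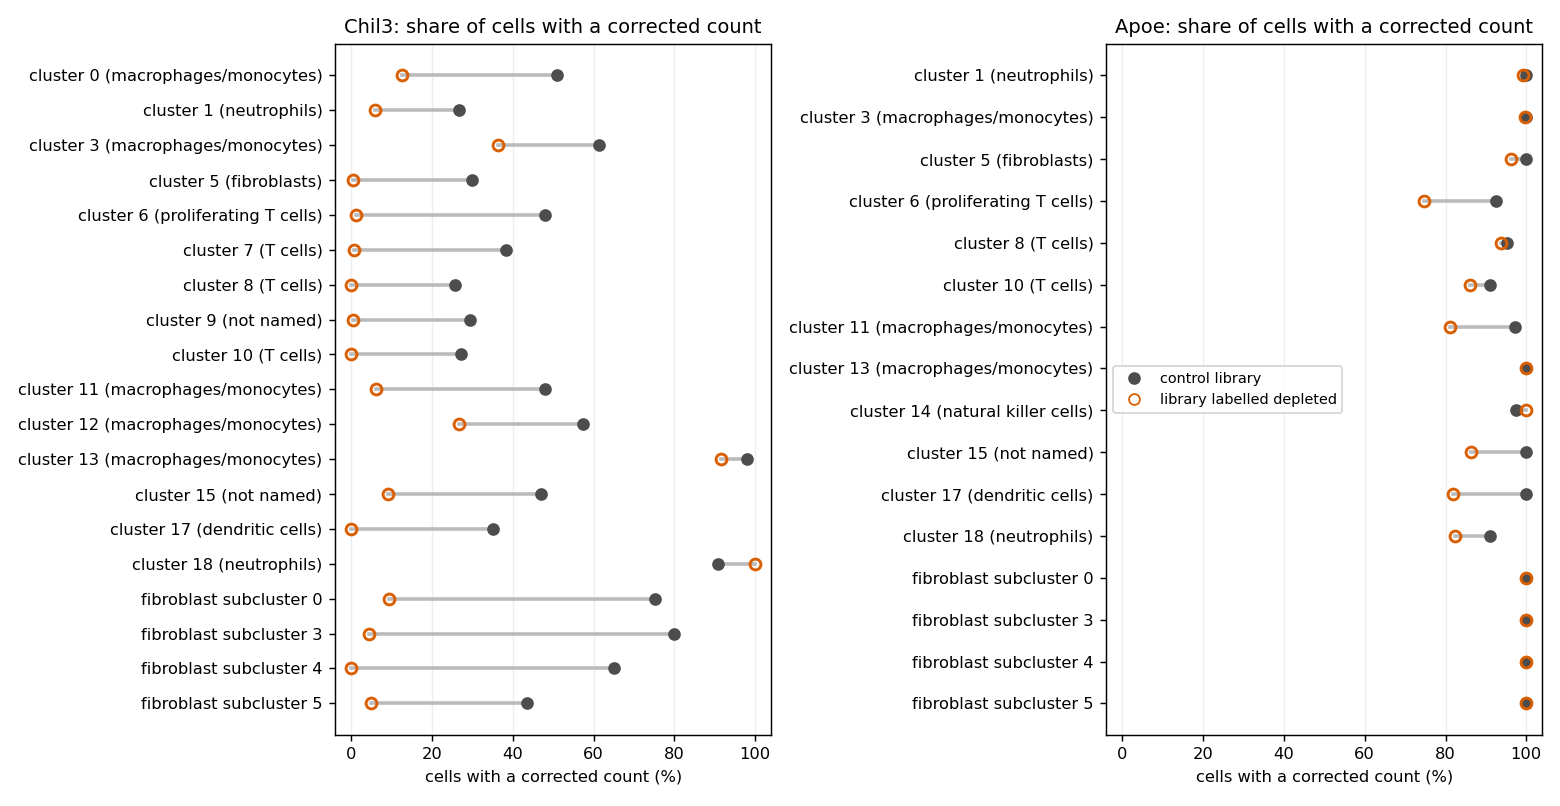
Share of cells with a corrected count for Chil3 (left) and Apoe (right), in percent, in every table that lists the gene. Filled points are the control library and open points the library labelled depleted, 1 library each with no replicates. Chil3 is lower in the library labelled depleted everywhere but in cluster 18, and Apoe lies near 100% in most tables.

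In the fibroblast subclusters, where every gene is listed, Chil3 had nearly the lowest difference of all. Its share was 75.2% in control and 9.4% in the library labelled depleted in subcluster 0, 80% and 4.3% in subcluster 3, 65.0% and 0% in subcluster 4, and 43.5% and 4.8% in subcluster 5. No population that should lack Chil3 was corrected together with the subclusters, so its background share there is unknown. Of the 15059 genes it ranked 1 from the lowest in subclusters 0 and 3, 2 in subcluster 4 and 42 in subcluster 5. Over all genes 15.4% of the subcluster values were lower by at least 10 points, and the median difference was 0 points in each subcluster. Beside it, 12 of 20 values of 5 erythroid markers were lower and 0 higher there, with means of 12.1% to 24.0% in control and 0% to 4.3% in the library labelled depleted. Of 24 values of the fibroblast markers 0 were lower and 3 higher. Col1a1, Col1a2, Col3a1 and Dcn stood at 100% in both libraries in every subcluster, so that this count says little. The T cell markers lay on the other side from the erythroid ones, with 12 of 20 values higher and 0 lower, at means of 2.6% to 6.7% in control and 11.2% to 22.0% in the library labelled depleted.

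Neutrophil markers were counted in the same tables. Of 10 neutrophil markers, 9 were listed in one cluster table or more, and of their 37 values there 31 (83.8%) were lower by at least 10 points in the library labelled depleted and 0 were higher, beside 38.6% and 34.1% of all values. Part of the lower values, such as those of S100a8 and S100a9 in cluster 5, could be listed only through the control library. Their direction was largely fixed by the filter of 25%. The mean share of the markers in a table ranged from 37.5% to 84.1% in control and from 7.5% to 85.3% in the library labelled depleted. In the subclusters, 20 of 40 values were lower and 0 higher, beside 15.4% and 17.4% of all values, with means of 24.8% to 31.3% and of 15.3% to 16.7%. Cxcr2, Mmp9, Ngp, Camp, Ltf and Retnlg each stood at 0% in at least 1 subcluster of the library labelled depleted, and Cxcr2, Ltf and Ngp stood at 0% in subcluster 5 of the control library.

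S100a9, an abundant neutrophil transcript, was set beside Chil3 directly. In the 12 clusters that list both genes, S100a9 was found in 45.5% to 67.7% of control cells and in 9.1% to 46.8% of those of the library labelled depleted. In the subclusters its shares were 85.0% to 96.7% and 38.1% to 60%. In the T cell clusters 6, 7, 8 and 10 its share was 59.3%, 67.7%, 50.9% and 45.5% in control. In the library labelled depleted it was 18.6%, 46.5%, 39.6% and 25.8%. The part of neutrophil transcripts in the Chil3 values was not tested.

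A near copy limits how Chil3 is read. Its transcript is 94.2% identical to that of Chil4, which lies beside it, over 1543 aligned columns, and 89.4% identical over the last 300 bases, where 3′ libraries are read. Chil4 was in none of the tables.

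Ly6c2, a surface protein that marks inflammatory monocytes and some lymphocytes (chromosome 15, 74980003 to 74988467, minus strand), did not follow Chil3. In the clusters the study calls macrophages/monocytes its share was 33.3% in control and 38.3% in the library labelled depleted in cluster 3, 39.6% and 41.7% in cluster 11, and 95.8% and 88.7% in cluster 13. All 3 differences were under 10 points. Cluster 13 was the one of these 3 with both Ly6c2 and Chil3 in most cells of either library. Among lymphocytes Ly6c2 was higher in the library labelled depleted, with 32.3% and 65.4% in the T cells of cluster 7, and 30.4% and 53.8% in the natural killer cells of cluster 14. In cluster 7 the 3 listed natural killer cell markers were also higher, at means of 25.9% and 48.4%. The 2 listed T cell markers had a mean of 96.0% in both libraries there, and the part of either in the Ly6c2 values was not tested.

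Fibroblasts showed the reverse for Ly6c2, though at low shares. It was found in 18.6% of control cells and 3.1% of the others in subcluster 0, and in 16.7% and 4.3% in subcluster 3. In subcluster 4 both libraries were at 10%, and in subcluster 5 the shares were 8.7% and 4.8%. Its neighbour Ly6c1, an endothelial and lymphocyte gene whose transcript is 98.0% identical over the last 300 bases, went the other way in subclusters 0, 3 and 5, with 8.3% and 18.8%, 6.7% and 13%, and 39.1% and 57.1%. Ly6c1 was also listed in the T cells of cluster 4, at 35.2% and 7.8%. Reads that cover only the shared bases cannot tell both genes apart, so each of these shares is uncertain.

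Plac8, a small cysteine-rich protein of monocytes and lymphocytes (chromosome 5, 100701591 to 100720111, minus strand), was listed in none of clusters 0, 3, 12 and 13. In cluster 11 it was found in 69.4% of control cells and 66.7% of those of the library labelled depleted. In lymphocytes its shares were close as well, 29.2% and 36.1% in cluster 4 and 35.1% and 31.2% in cluster 8. Cluster 9 had 100% and 91.0%. It was higher by more than 20 points in the neutrophils of cluster 18, at 54.5% and 82.4%, and in the fibroblasts of cluster 5, at 67.1% and 89.8%.

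The fibroblast subclusters gave Plac8 the same direction as cluster 5, which holds the same cells. The shares were 87.6% and 100% in subcluster 0, 70% and 91.3% in subcluster 3, 47.5% and 50% in subcluster 4, and 78.3% and 85.7% in subcluster 5. All 4 were higher in the library labelled depleted, and subclusters 0 and 3 by at least 10 points, beside 17.4% of all subcluster values. The T cell markers, given above, were higher there too, for example Cd8a with 2.8% and 18.8% in subcluster 0 and Cd3d with 10% and 39.1% in subcluster 3, and their part in the Plac8 values was not tested.

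Trem2, a lipid-sensing receptor of macrophages (chromosome 17, 48653429 to 48661175, plus strand), was listed in clusters 0, 3, 11 and 12 and in no other cluster. It was lower in the library labelled depleted in each. The shares were 98.5% and 92.2% in cluster 0, 82.6% and 76.6% in cluster 3, 28.1% and 20.3% in cluster 12, and 31.2% and 2.1% in cluster 11. Only cluster 11, where the macrophage markers were also lower in 5 of 7 listed genes, passed 10 points. In clusters 11 and 12 Trem2 was listed only through the control library. Its lower direction there was largely fixed by the filter.

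Trem2 shares in fibroblasts were 62.8% and 68.8% in subcluster 0, 36.7% and 39.1% in subcluster 3, 40% and 40% in subcluster 4, and 39.1% and 4.8% in subcluster 5. The first 3 subclusters differed by at most 6.0 points and subcluster 5 by -34.3. Over the 4 subclusters, 18 of the 36 values of the macrophage markers were lower and 3 higher, with mean shares of 38.6% to 48.5% in control and 28.6% to 37.2% in the library labelled depleted. Cd68 in subcluster 5 and Fcgr1 in subcluster 4 were at 0% in the latter, and Fcgr1 in subcluster 5 was at 0% in control. The part of macrophage transcripts in the subcluster values was not tested.

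Gpnmb, a membrane glycoprotein of phagocytes (chromosome 6, 49013426 to 49047863, plus strand), was in no cluster table, so that it has a value in the fibroblast subclusters alone. There its shares were low: 3.4% and 6.2% in subcluster 0, 0% and 13% in subcluster 3, 5.0% and 0% in subcluster 4, and 8.7% and 4.8% in subcluster 5. In subcluster 3 the difference of 13 points came from a control share of 0%.

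Fabp5, a cytoplasmic carrier of fatty acids (chromosome 3, 10077602 to 10081674, plus strand), was listed in 7 clusters. Among macrophages/monocytes its share was 56.5% in control and 40.8% in the library labelled depleted in cluster 0, 37.2% and 32.0% in cluster 3, and 40% and 45.1% in cluster 13. Cluster 0 alone of these passed 10 points. Cluster 11 had 47.2% and 45.8%. The neutrophils of cluster 1 had 53.4% and 39.0%, the T cells of cluster 7 had 29.3% and 14.5%, and cluster 9 had 41.2% and 34.9%.

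In the fibroblast subclusters most cells of both libraries held Fabp5. The shares were 90.3% and 93.8% in subcluster 0, 96.7% and 91.3% in subcluster 3, 87.5% and 100% in subcluster 4, and 73.9% and 90.5% in subcluster 5. The direction was thus higher in 3 of 4 subclusters, unlike cluster 0. Its relative Fabp4, 49.6% identical as a transcript, was lower in cluster 12, with 60.4% and 38.0%, and was found in 62.1% and 66.8% of the cells of cluster 5. In subclusters 0, 3, 4 and 5 Fabp4 had 74.5% and 78.1%, 56.7% and 73.9%, 72.5% and 60%, and 52.2% and 19.0%.

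Cd9, a tetraspanin of membranes and vesicles found in many cell types (chromosome 6, 125437210 to 125471778, minus strand), had no common direction. Its share was 64.5% and 59.7% in cluster 0, 36.2% and 36.4% in cluster 3, 71.5% and 50% in cluster 11, and 12.6% and 32.4% in cluster 13. Clusters 11 and 13 were on opposite sides, at -21.5 and 19.8 points. In cluster 13 Cd9 could be listed only through the library labelled depleted, so that its side there was largely fixed by the filter. Among neutrophils it was 86.2% and 88.4% in cluster 1, and 90.9% and 82.4% in cluster 18. The fibroblast shares were 100% and 96.9% in subcluster 0, 100% in both libraries in subcluster 3, 92.5% and 80% in subcluster 4, and 95.7% and 100% in subcluster 5.

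Lpl, the lipase that frees fatty acids from lipoproteins (chromosome 8, 69284603 to 69360100, plus strand), was the member with the widest higher share among macrophages. In cluster 0 it was found in 15.3% of control cells and 46.0% of those of the library labelled depleted, a difference of 30.7 points beside a median of 9.3 over the 923 genes of that table. Cluster 3 had 32.3% and 40.1%. The fibroblasts of cluster 5 had 38.6% and 34.8%, on the other side of 0.

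Every fibroblast subcluster had Lpl lower in the library labelled depleted. The shares were 49.7% and 40.6% in subcluster 0, 63.3% and 30.4% in subcluster 3, 72.5% and 60% in subcluster 4, and 87.0% and 52.4% in subcluster 5. The difference reached -32.9 points in subcluster 3 and -34.6 in subcluster 5. In cluster 0 Lpl and Fabp5 therefore differed in opposite directions, and in subcluster 5 each differed in the opposite direction to cluster 0.

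**Figure D2:**
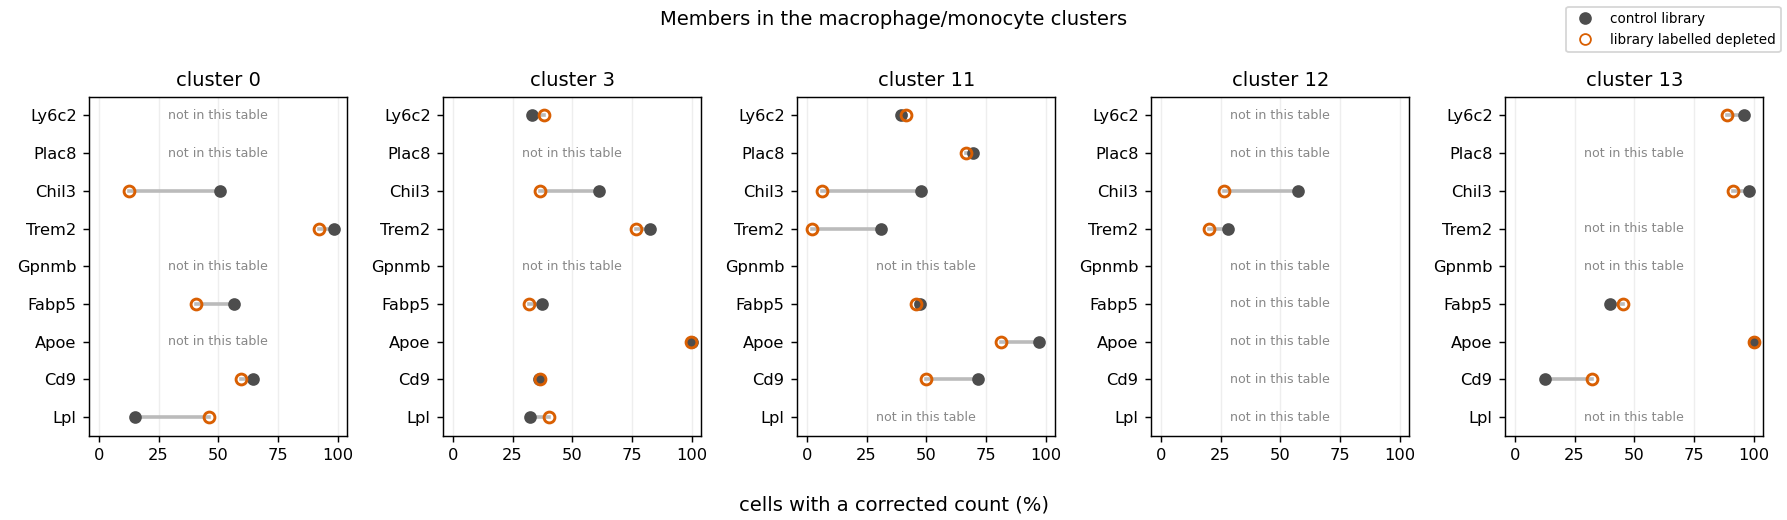
Share of cells with a corrected count for each of the 9 genes in the 5 clusters that the study calls macrophages/monocytes, in percent. Filled points are the control library, open points the library labelled depleted, and genes missing from a table are marked. Chil3 is lower in all 5 clusters, by 6.4 points in cluster 13 and by 24.9 to 41.7 points in the others, while Lpl in cluster 0 is higher.

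Apoe, an apolipoprotein secreted in large amounts by macrophages (chromosome 7, 19430034 to 19434947, minus strand), was listed in 12 clusters, with a lower share in 10, a higher one in 1 and equal shares in 1. The shares were 100% and 99.6% in cluster 3, 97.2% and 81.2% in cluster 11, and 100% in both libraries in cluster 13. Since nearly all cells held it, a share says little about its level there. In the T cells of clusters 8 and 10, which do not make Apoe in quantity, it was found in 95.3% and 93.8%, and in 90.9% and 86.0%. Shares at or below the higher T cell share of the same library, 95.3% or 93.8%, are not read here as expression, although the source of the counts was not tested. Clusters 6, with 92.6% and 74.6%, and 18, with 90.9% and 82.4%, lay below it in both libraries, and clusters 11, 15 and 17 in the library labelled depleted.

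Apoe was lower by at least 10 points in 4 of its 12 clusters, no larger a share than the 38.6% of all values that were lower by as much. Beside clusters 6 and 11 these were cluster 15, at 100% and 86.4%, and the dendritic cells of cluster 17, at 100% and 81.8%. The neutrophils of cluster 1 had 100% and 99.2%. The other values were 100% and 96.3% in cluster 5, and 97.5% and 100% in the natural killer cells of cluster 14, the only cluster with a higher share. All 4 fibroblast subclusters had Apoe in 100% of the cells of both libraries.

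**Figure D3:**
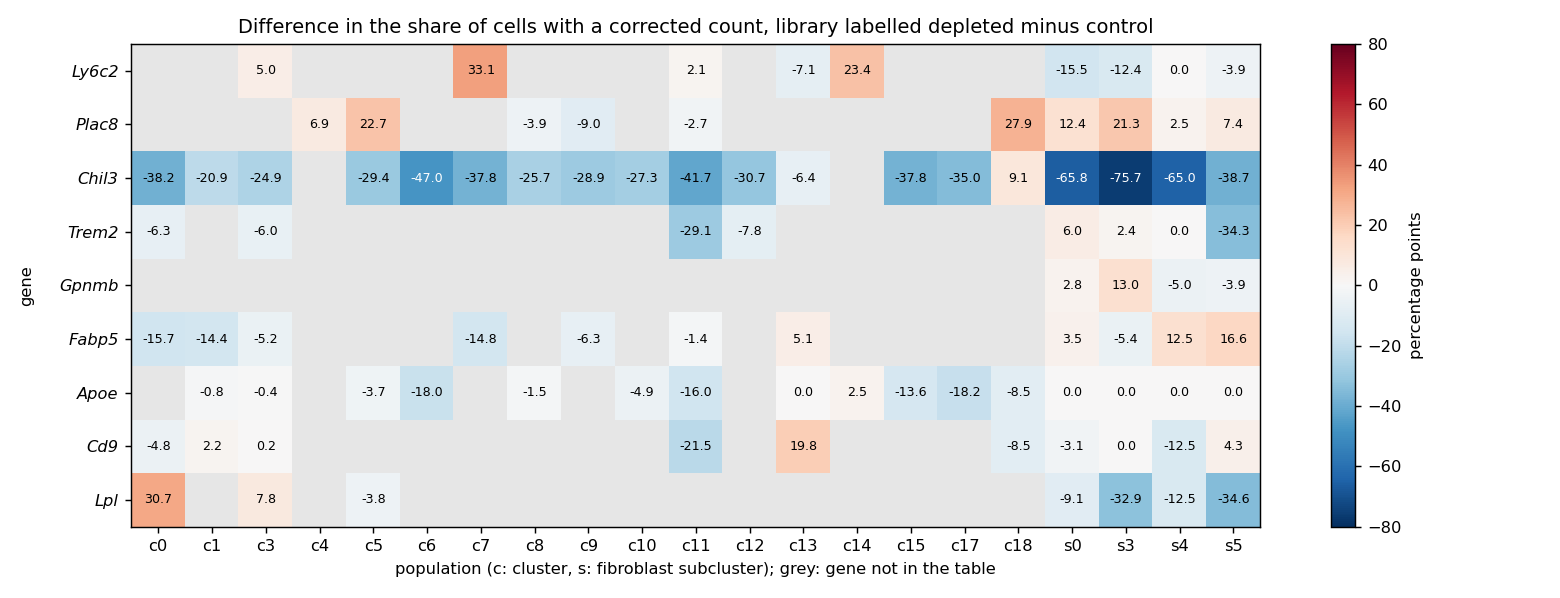
Difference in the share of cells with a corrected count, library labelled depleted minus control, in percentage points, for the 9 genes in every table that lists at least 1 of them. Blue is lower and red higher in the library labelled depleted, and grey cells have no value. The Chil3 row is blue in all but 1 of its tables, while every other row also has values on both sides of 0, with sizes of up to 34.6 points.

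Counted together, the members gave 58 values in the cluster tables, of which 22 (37.9%) were lower by at least 10 points and 6 (10.3%) were higher. Over all genes listed there 38.6% were lower and 34.1% higher, so that the share of lower values was near the background. In the 5 macrophage/monocyte clusters 8 of 26 values (30.8%) were lower against 28.4% of all genes, and 2 (7.69%) were higher against 37.0%. Without cluster 11, a count added after its values were seen, 4 of 19 (21.1%) were lower against 24.4%, and 2 (10.5%) higher against 39.8%. Without Chil3 the lower values were 4 of 21 in the 5 clusters, and 1 of 15 (6.67%) without cluster 11, beside 2 (13.3%) higher. In the subclusters 11 of 36 values (30.6%) were lower against 15.4%, and 5 (13.9%) higher against 17.4%. Chil3 and Apoe were selected on these values, so nothing is read from these counts for them. Leaving out Chil3, a count added after its values were seen, 9 of 43 cluster values (20.9%) and 7 of 32 subcluster values (21.9%) were lower.

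**Figure D4:**
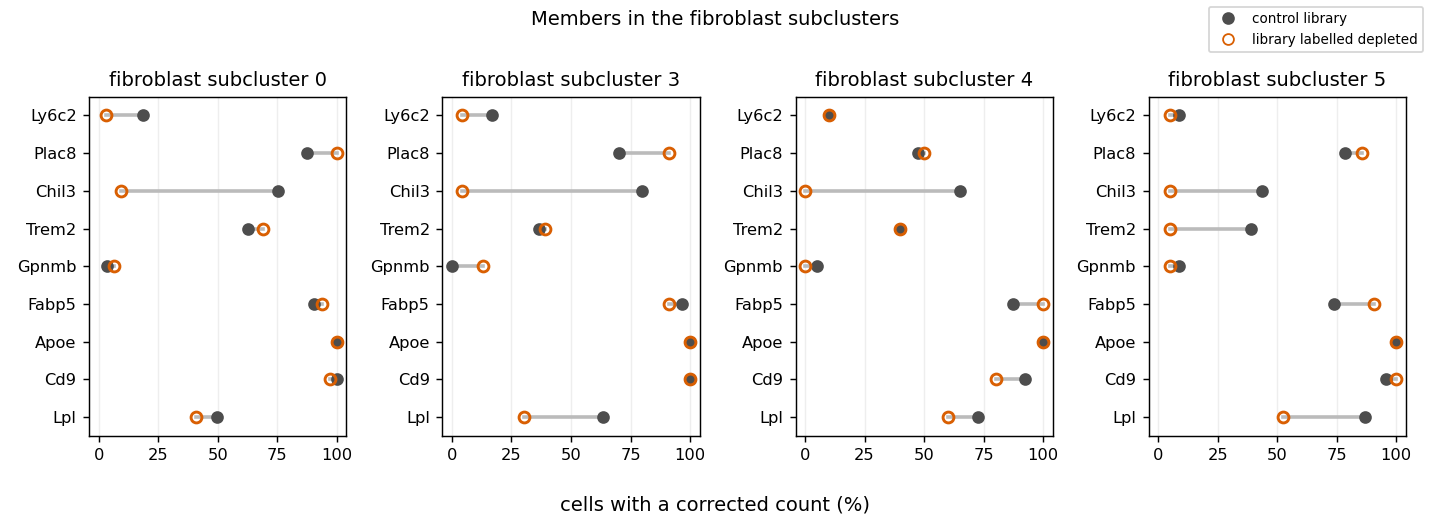
Share of cells with a corrected count for each of the 9 genes in the 4 fibroblast subclusters, in percent. Filled points are the control library and open points the library labelled depleted, 1 library each. Chil3 and Lpl are lower and Plac8 is higher in all 4, Apoe is at 100% throughout, and Gpnmb stays at or below 13%.

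The other genes of these programmes were read from 3 lists. Of 20 further monocyte genes 19 were listed in at least 1 cluster, and of their 101 values 45 (44.6%) were lower and 10 (9.90%) higher by at least 10 points, beside 38.6% and 34.1% of all values, with a median difference of -5.9 points. The most often listed were Lyz2 (lysozyme), S100a4, the transcription factor gene Cebpb and Fn1 (fibronectin). A tie for the last of these places was settled by the larger mean size of difference. Fn1 was lower in 4 of 7 tables and higher in 0, with differences from -47.4 to 2.4 points. Lyz2 was lower in 5 of 13 and higher in 1, S100a4 lower in 3 of 9 and higher in 1, and Cebpb lower in 3 of 8 and higher in 1. In the subclusters the list had 22 of 76 values (28.9%) lower and 9 (11.8%) higher, beside 15.4% and 17.4% of all values.

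Of 23 further lipid-associated macrophage genes 20 were listed in a cluster, at a median difference of -0.3 points. Of their 111 values 24 (21.6%) were lower and 10 (9.01%) higher, beside 38.6% and 34.1% of all values. Ftl1 and Fth1, which encode ferritin, and the galectin genes Lgals1 and Lgals3 were listed most often. Ftl1 was lower by at least 10 points in 1 of 17 tables, Fth1 in 0 of 10, Lgals1 in 1 of 12 and Lgals3 in 5 of 11, and of these Lgals1 was higher in 1. Both libraries were at 100% for Ftl1 in 10 of its 17 tables and for Fth1 in 8 of 10, so that these shares could hardly differ. In the subclusters 17 of 88 values (19.3%) were lower and 16 (18.2%) higher, near the 15.4% and 17.4% of all values. Of 10 further genes of alternative activation 6 were listed, with 6 of 14 values (42.9%) lower and 5 (35.7%) higher, near the 38.6% and 34.1% of all values. In the macrophage/monocyte clusters 3 of 11 (27.3%) were lower and 5 (45.5%) higher, beside 28.4% and 37.0% of all values there, at a median of 9.9 points. The 3 values of other clusters were lower. In the subclusters 6 of 32 (18.8%) were lower and 6 higher, near the 15.4% and 17.4% of all values.

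The genes whose share differences were most like those of Chil3 over the clusters were found among 101 genes that share at least 8 cluster tables with it. They were Aldoa, a glycolytic enzyme (Pearson r = 0.94 over 8 tables), the transcription factor gene Jund (0.913 over 8), the ribosomal protein gene Rpl30 (0.91 over 9), the MHC class I gene H2-K1 (0.86 over 11) and Tmem160 (0.845 over 8). For Apoe, among 51 genes, they were Ifitm3 (0.874 over 8), Spp1 (0.781 over 8), Lyz2 (0.763 over 10), B2m (0.578 over 8) and Chil3 (0.56 over 11). These are descriptions across clusters that come from the same 2 libraries and share their depth, and the closest genes were picked from many.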

How the data were processed

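Per the authors' methods, reads were aligned with Cell Ranger 6.1.1 to GRCm39 with added EGFP and SA-betageo sequences, and both libraries were normalized with SCTransform, clustered and compared in Seurat, with the fibroblasts reprocessed alone. Clusters and subclusters were corrected separately, so that only directions of differences were set side by side between them. The deposited tables give, per gene, the fraction of cells of each library with an SCTransform-corrected count above 0, printed here as a percent. They also hold the authors' log2 fold change, p-value and adjusted p-value for each gene, which were not used here. No per-sample column was left unused.

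The members and all gene lists were chosen with earlier results of these data known. Results for 2 further genes, 1 of them a marker and 1 a gene of these programmes, are not reported here. Text names every member, up to 4 genes of each other list by how many cluster tables list them, the 5 genes most like Chil3 and Apoe over at least 8 common tables, the targeted genes and listed paralogs. Spp1, Cd36 and the single marker genes named were chosen after their values were seen. Differences of at least 10 points were counted. The steps were tested on simulated data. Alternatives were limits of 5 and 20 points, a log2 ratio limit of 0.5 after adding 0.1 points, centring on each table's median, leaving out clusters 6, 9 and 10 (mostly 1 library per the study) or the neutrophil clusters, keeping only shares between 5% and 95%, Chil3 and Apoe tables counted from 5 or 10 points, and, added after the values were seen, the members without Chil3 and the macrophage/monocyte clusters without cluster 11. Positions come from GENCODE on GRCm39, and transcript identities from alignments of its first transcript of each gene. Python 3.11.15, pandas 2.3.3, numpy 2.4.6, Biopython 1.88 and matplotlib 3.10.9 were used. Doublets could not be removed here. Cluster 16 was not analysed here, nor were 2 of the fibroblast subclusters.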

Additional observations from a re-analysis of the deposited data

Results flagged for a closer look

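Lpl was flagged because its share went one way in the macrophages/monocytes of cluster 0 and the other way in fibroblasts. The difference, library labelled depleted minus control, was 30.7 points in cluster 0, -32.9 in fibroblast subcluster 3 and -34.6 in fibroblast subcluster 5. The size of 20 points behind this selection was set after the values were seen. The fibroblasts of cluster 5, normalized together with cluster 0, had a difference of -3.8 points. Fibroblast subclusters 0 and 4 had -9.1 and -12.5 points. In cluster 0 Lpl was listed only through the library labelled depleted, so that its higher direction there was largely fixed by the filter. Each value rests on 1 library per genotype, the clusters and subclusters were normalized separately, and the difference between them was not tested.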

How the results depend on the processing

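No paired analysis was possible because each genotype had 1 library, and none could be left out. With a limit of 5 points in place of 10, the members' higher values in the cluster tables went from 6 to 11. Without Chil3, an alternative chosen after seeing the data, 9 values in place of 22 were lower there, and 7 in place of 11 in the subclusters. The 11 lower values in the subclusters also became 7 with a limit of 20 points. The 5 higher values in the subclusters became 1 with a limit of 20 points and 2 with a log2 ratio of 0.5. Apoe was lower in 5 of its 12 cluster tables when differences of at least 5 points were counted and in 4 at 10 points, against 10 at any size. Without cluster 11, also chosen after seeing the data, 4 in place of 8 values were lower in the macrophage/monocyte clusters. The other 31 recomputed counts stayed within 1.5 times the reported count, and the 16 recomputed medians of single genes over their cluster tables moved by less than the SD between those tables, none with a turned sign. Shares near 0% or 100% cannot show how levels differ, and the unknown number of cells limits every value, most in populations whose shares come in coarse steps, such as fibroblast subcluster 4.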

Other observations

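Spp1 and Cd36 were chosen after their values were seen. Spp1, which encodes the secreted matrix protein osteopontin, was lower in the library labelled depleted in 9 of the 9 cluster tables that list it and by at least 10 points in 7, beside 38.6% of all values that were lower by as much. In clusters 11, 14, 15, 17 and 18 it could be listed only through the control library, so that its direction there was largely fixed by the filter of 25%. Its share was 84.5% in control and 51.8% in the library labelled depleted in cluster 0, 56.4% and 33.8% in cluster 3, and 38.9% and 10.4% in cluster 11. Cluster 1 had 44.5% and 42.5%, and cluster 13 had 37.9% and 33.8%. It was also lower in the natural killer cells of cluster 14, at 34.2% and 15.4%, in cluster 15, at 31.2% and 4.5%, in the dendritic cells of cluster 17, at 45% and 0%, and in the neutrophils of cluster 18, at 54.5% and 23.5%. The source of these counts was not tested. The fibroblast subclusters 0, 3, 4 and 5 had 66.9% and 25%, 60% and 43.5%, 62.5% and 20%, and 60.9% and 9.5%. Cd36, a scavenger receptor that takes up fatty acids, was higher in cluster 0, at 38.6% and 71.9%, and in cluster 3, at 11% and 27.5%, the clusters in which Lpl was also higher. Cd36 in cluster 3 and Lpl in cluster 0 could be listed only through the library labelled depleted. Their higher direction there was largely fixed by the filter. The Cd36 shares in cluster 17 were 50% and 45.5%, and in the fibroblast subclusters 5.5% and 3.1%, 3.3% and 26.1%, 5.0% and 20%, and 0% and 14.3%.

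Chil1, a relative of Chil3 made by neutrophils and macrophages, was lower in the neutrophils of cluster 1, with 40.2% in control and 18.5% in the library labelled depleted, and of cluster 18, with 100% and 88.2%. In the fibroblast subclusters it was on the other side from Chil3, with 11% and 34.4% in subcluster 0, 0% and 21.7% in subcluster 3, and 5.0% and 10% in subcluster 4, and was at 0% in both libraries in subcluster 5. Trem1, a relative of Trem2 that amplifies inflammatory signals in neutrophils and monocytes, was higher in cluster 1, at 35.1% and 54.4%, and in cluster 13, at 9.5% and 35.2%, and lower in cluster 12, at 25% and 11.4%. Trem1 could be listed in cluster 13 only through the library labelled depleted, and in cluster 12 only through control. Its shares in the subclusters were at most 7.5%. Trem3, a neighbouring member of that family, had 100% and 94.1% in cluster 18, and at most 9.7% in the subclusters.

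Apoc1 and Apoc2 encode small apolipoproteins from the same gene cluster as Apoe. Apoc2 was higher in cluster 0, at 21.5% and 35.6%, and in cluster 3, at 20.6% and 45.4%, and had 33.3% and 31.6% in cluster 12. In clusters 0 and 3 it could be listed only through the library labelled depleted. Its shares in the subclusters were at most 8.7%. Apoc1 was in no cluster table, and in subclusters 0, 3, 4 and 5 it had 17.2% and 3.1%, 16.7% and 13%, 5.0% and 10%, and 34.8% and 0%.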
